A study of Rattus norvegicus with 84 samples.

Results

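Damage-associated microglia are the reactive state that microglia, the resident macrophages of the brain, take up around injured tissue, and a small set of genes marks them. Here 9 of these genes, Spp1, Lgals3, Gpnmb, Trem2, Tyrobp, Cd68, Cd63, Itgax, and Cd44, were followed in the mRNA of extracellular vesicles (EVs) after stroke. They were named by symbol, and each was found among the 18782 annotated genes of the deposited count table. The set was selected on counts and FPKM of these same libraries, with earlier results in view, and which values led to each name is not recorded. The levels in brain-derived EVs after stroke against healthy rats are therefore given as a description. Calls in those contrasts are listed once, with the share of all genes called, and support nothing.

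EV mRNA was sequenced from male Sprague-Dawley rats, in 7 groups of 3. The age of 8 to 12 weeks is given for the rats with stroke, and no age is given for the healthy rats. In 6 groups the middle cerebral artery had been occluded for 90 min, and 3 days later the rats received 200000 human neural stem cells (hNSCs) or saline (control) through the common carotid artery, and they were killed 4, 10, or 31 days poststroke. The other 3 rats are labeled healthy, and no occlusion or injection is recorded for them. Brain-derived EVs came from the ipsilateral hemisphere, and plasma-derived EVs from blood, with 21 libraries of each. The vesicles come from every cell type of the hemisphere or of the blood, so fewer vesicles from a cell type and less of an mRNA per vesicle cannot be told apart.

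In microglia, Trem2 is a surface receptor for lipids and apolipoproteins that signals through the adaptor Tyrobp, and this pair is needed for the change from the homeostatic to the damage-associated state. Spp1 (osteopontin) and Lgals3 (galectin-3) are secreted proteins, the first a ligand of integrins and of Cd44, the second a lectin that binds sugars on damaged membranes. Cd44 is a receptor for hyaluronan, Itgax is the integrin subunit CD11c, Gpnmb and Cd68 are glycoproteins of lysosomes and phagosomes, and Cd63 is a tetraspanin of late endosomes that is also a common marker of EVs. All of these genes are also used by macrophages from the blood, and Cd44 and Cd63 by many other cells.

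RefSeq start sites in the rat build GRCr8 were at hand for 7 of the 9 genes, all except Lgals3 and Tyrobp. The 250 bases before the start are shown for Spp1, Gpnmb, and Cd68, the most abundant members in brain at 4 days among those 7, and for Cd63, the only member whose window held every motif searched. Capitals mark the letters of 4 short motifs of myeloid and lysosomal gene control, searched on both strands, namely TGANTCA (AP-1), GAGGAA (PU.1), CACGTG (E-box), and TCATGTGA (M-box), and no match overlapped another.
Spp1 (chr14:5619805-5620054, minus strand): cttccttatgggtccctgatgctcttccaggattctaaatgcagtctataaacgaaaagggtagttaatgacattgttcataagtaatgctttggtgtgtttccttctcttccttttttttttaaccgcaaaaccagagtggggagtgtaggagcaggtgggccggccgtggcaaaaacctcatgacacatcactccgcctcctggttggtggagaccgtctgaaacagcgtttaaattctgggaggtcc
Gpnmb (chr4:79340878-79341127, plus strand): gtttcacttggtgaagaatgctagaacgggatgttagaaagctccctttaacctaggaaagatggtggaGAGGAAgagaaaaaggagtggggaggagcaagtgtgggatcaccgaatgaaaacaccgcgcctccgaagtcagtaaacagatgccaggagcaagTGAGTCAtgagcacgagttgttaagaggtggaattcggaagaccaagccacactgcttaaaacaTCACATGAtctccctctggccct
Cd68 (chr10:54882442-54882691, minus strand): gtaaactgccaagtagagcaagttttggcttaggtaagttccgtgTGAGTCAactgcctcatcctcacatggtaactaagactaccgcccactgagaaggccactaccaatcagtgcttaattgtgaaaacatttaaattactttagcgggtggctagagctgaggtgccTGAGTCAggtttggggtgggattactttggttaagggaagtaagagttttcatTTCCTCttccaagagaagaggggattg
Cd63 (chr7:1921894-1922143, plus strand): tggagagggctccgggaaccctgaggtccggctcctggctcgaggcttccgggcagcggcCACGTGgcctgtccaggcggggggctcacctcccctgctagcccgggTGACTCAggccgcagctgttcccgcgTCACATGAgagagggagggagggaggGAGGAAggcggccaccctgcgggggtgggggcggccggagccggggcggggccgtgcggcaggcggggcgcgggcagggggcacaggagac

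The AP-1 letters stood in the windows of 4 of the 7 members (Gpnmb, Cd68, Cd63, and Itgax), against 6.34% of 33469 rat promoters of the same length. In Gpnmb they lay 87 to 81 bases before the start, in Cd63 at 143 to 137, in Itgax at 56 to 50, and in Cd68 at both 205 to 199 and 80 to 74. The M-box letters were present in Gpnmb (23 to 16 bases before the start) and Cd63 (117 to 110), and in 0.977% of all windows. The PU.1 letters were found in Gpnmb, Cd68, Cd63, and Trem2, and in 23.3% of all windows, and the E-box letters in Cd63, and in 5.59% of all windows. None of the 4 motifs was present in the windows of Spp1 and Cd44. These matches describe the letters in the windows.

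Between 13221461 and 37651652 reads were counted per brain library and between 11878367 and 49824782 per plasma library. Annotated genes took 3.18% to 51.9% of the reads in brain and 45.1% to 75.6% in plasma, so the depth on annotated genes differed far more between brain libraries, from 569136 reads in hNSCs rat 3 at 10 days to 15587216 in control rat 1 at 31 days. Levels of a gene are given as CPM, its reads relative to the annotated reads of the library after TMM scaling, and genes are compared with each other only by FPKM, which corrects for length. A count of 3 reads corresponded to between 0.184 and 4.52 CPM in the brain libraries. All 9 members passed the filter on low counts in both tissues, where 14515 and 14720 genes were tested. The neuronal marker list (8 genes) summed to 1859 to 8747 CPM in the brain libraries and to 0 to 23.3 CPM in the plasma libraries.

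In brain-derived EVs, Spp1, Lgals3, Tyrobp, and Itgax had no reads in the healthy rats, and Gpnmb, Cd68, and Cd44 had at most 8.16 CPM, while Cd63 was read in all 3 and Trem2 in 1 of them. Spp1, Gpnmb, Cd68, and Lgals3 were the members with the highest FPKM 4 days poststroke. The 9 genes together summed to 16.9, 29.5, and 31.7 CPM in the 3 healthy rats and to 829 to 1769 CPM in the control rats at 4 days. At 10 days the 3 control rats spread from 82.7 to 2196 CPM, and at 31 days they lay between 102 and 241 CPM. The healthy and control ranges of the sum, to which Spp1 gave the largest part at 4 days, did not overlap at any of the 3 time points.

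Spp1 had no read in the 3 healthy libraries. At 4 days its level was 719, 789, and 495 CPM in control rats 1 to 3, which put the group at least 2085-fold above the healthy group when 3 reads over the healthy libraries are taken as the floor. These floors cover counting error only, since the mRNA libraries had no molecular identifiers. At 10 days the values were 20.0, 693, and 197 CPM, and at 31 days 18.2, 28.9, and 3.15 CPM. Spp1 was thus the member with the highest level at 4 days, and the control rats at 31 days all lay below every control rat at 4 days.

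Lgals3 was likewise listed without reads in the 3 healthy libraries. It stood at 198, 82.8, and 27.7 CPM in the control rats at 4 days, at least 356-fold above the healthy group (161-fold without control rat 1). At 10 days control rat 1 had no Lgals3 read, while the others had 187 and 29.3 CPM, and at 31 days the values were 21.9, 15.8, and 8.83 CPM. Its range at 10 days therefore touched that of the healthy rats, and the other time points stayed above it.

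Gpnmb was counted in 1 of the 3 healthy libraries, at 3.99 CPM. It reached 399.6, 404, and 131 CPM in the control rats at 4 days, a log2 fold change of 7.52 ± 1.52 (standard error) over the healthy group. At 10 days it stood at 17.5, 616, and 38.6 CPM and at 31 days at 85.5, 64.2, and 26.2 CPM, with log2 fold changes of 7.04 ± 1.5 and 5.11 ± 1.41. All 9 control rats lay above the 3 healthy rats, and without control rat 2 the log2 fold change at 10 days was 4.04.

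Cd68, the phagosome glycoprotein, was at 0, 5.54, and 8.16 CPM in healthy rats and at 222, 182, and 73.2 CPM in control rats at 4 days, a log2 fold change of 4.99 ± 1.22. It remained at 10.7, 237, and 182 CPM at 10 days, and at 31 days it had come down to 14.7, 17.0, and 4.73 CPM, a range that overlapped the healthy one. Cd44 followed a flatter course, from 0, 3.10, and 0.844 CPM in healthy rats to 68.3, 49.7, and 36.6 CPM at 4 days and 32.9, 24.2, and 16.1 CPM at 31 days, with values of 4.26, 72.3, and 5.32 CPM in between. Its log2 fold changes over the healthy group were 5.11 ± 1.27, 4.19 ± 1.22, and 4.03 ± 1.21 at 4, 10, and 31 days. The healthy and control ranges of Cd44 were apart at every time point, and without control rat 2 the value at 10 days was 1.70. At 10 days that separation rested on 10 and 8 reads in control rats 1 and 3, against 14 reads in healthy rat 2.

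The receptor Trem2 and its adaptor Tyrobp differed in the healthy rats. Tyrobp had no reads in healthy rats and stood at 44.7, 23.5, and 10.8 CPM at 4 days, at 16.2, 228, and 9.98 CPM at 10 days, and at 5.24, 12.0, and 5.20 CPM at 31 days, at least 89.0-fold, 285-fold, and 21.9-fold above the healthy group. The bound at 4 days was 51.0-fold without control rat 1, and that at 10 days was 43.4-fold without control rat 2 and 436-fold without control rat 1. Trem2 differed from the other members in that healthy rat 1 alone held 18.7 CPM (26 reads) and the other healthy rats none. Control rats had 20.7, 17.3, and 32.0 CPM of Trem2 at 4 days, so the ranges overlapped, and the log2 fold change was 1.99 ± 1.55. The values at 10 days were 6.39, 43.8, and 26.6 CPM and those at 31 days 7.71, 21.5, and 4.89 CPM, and both ranges overlapped the healthy one.

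Cd63 was present in all healthy rats, at 10.8, 19.0, and 7.88 CPM. At 4 days it was at 80.3, 33.6, and 22.1 CPM, a log2 fold change of 1.84 ± 1.32, at 10 days at 7.67, 118, and 15.3 CPM, and at 31 days at 42.0, 48.5, and 28.4 CPM. At 10 days 2 of the 3 control rats lay within or below the healthy range, and at 4 and 31 days all 3 lay above it. Itgax was the scarcest member. It was read in 9 of 21 brain libraries, in none of the healthy rats, in 2 of 3 control rats at 4 days (16.3 and 11.0 CPM), in 1 at 10 days (24.6 CPM), and in all 3 at 31 days (0.925, 8.71, and 4.10 CPM).

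**Figure D1:**
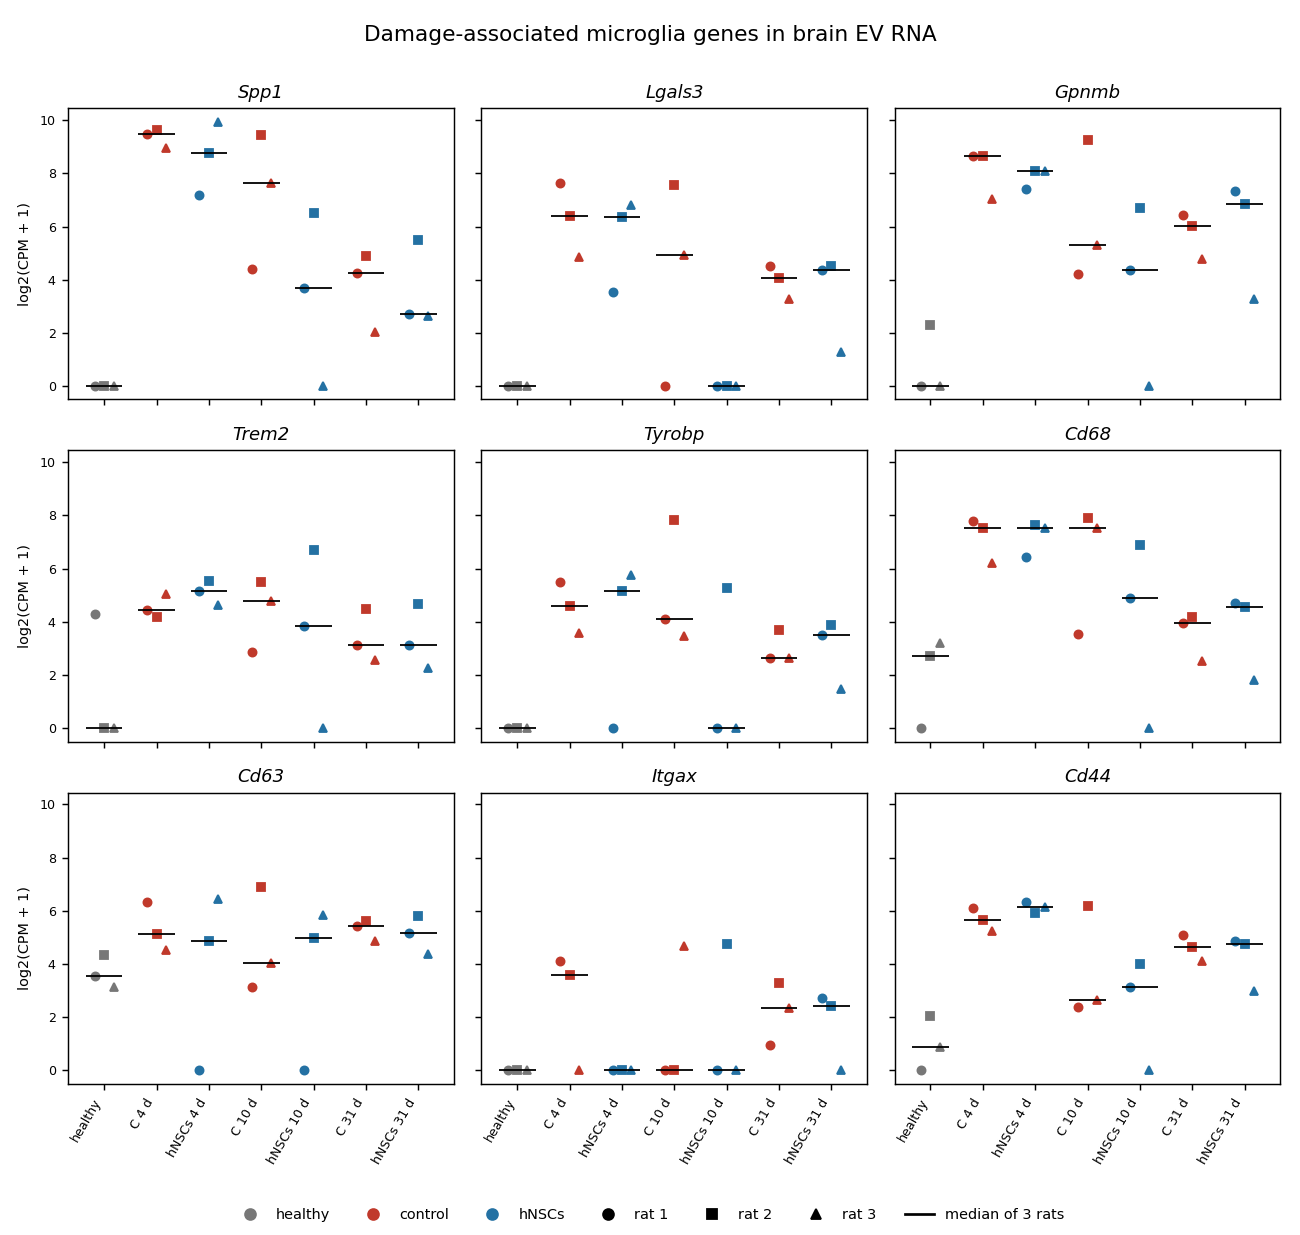
Level of each of the 9 genes in brain-derived EVs, as log2(CPM + 1) on the vertical axis, in 21 rats of 7 groups on the horizontal axis (C, control). Symbols are single rats and black lines the median of 3 rats. Spp1, Lgals3, Tyrobp, and Itgax lie at 0 in all 3 healthy rats, and at 10 days the control rats spread from 20.0 to 693 CPM for Spp1.

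Per length, Spp1 led the set in control rats at 4 days with 21.7 ± 6.74 FPKM (SD, n = 3), which ranked 52 among annotated genes by group mean. Gpnmb (6.67 ± 3.80), Cd68 (6.59 ± 3.89), and Lgals3 (5.63 ± 5.45) came next and did not differ from each other beyond their spread, nor did Cd63 (2.51 ± 2.22) and Tyrobp (2.46 ± 1.97). Trem2 (0.998 ± 0.320), Cd44 (0.509 ± 0.235), and Itgax (0.0957 ± 0.0934) were the lowest. At 31 days the order had changed, with Cd63 first at 4.95 ± 2.67 FPKM, Gpnmb second at 3.01 ± 2.29 FPKM, and Spp1 at 1.33 ± 1.05 FPKM, rank 6085. FPKM is used here only within a group, because it follows the share of annotated reads: on log2(FPKM + 0.1) the median of all genes was 1.74 higher at 31 days than in healthy rats, against 0.24 in the TMM-scaled fit.

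The genes were chosen with the contrasts of stroke with healthy brain known, so the calls in them are circular and nothing is read from their number. By edgeR's quasi-likelihood test with Benjamini-Hochberg adjustment and a change over 1.5-fold, 3 members (Spp1, Lgals3, and Gpnmb) were called higher at 4 days, where 0.861% of all genes tested were called, and the same 3 genes at 10 days, where 0.572% were called. At 31 days no member was called, and 0.00689% of genes were. At an unadjusted p under 0.05 by edgeR there were 6 members, beside 7.14% of all genes. DESeq2 called 5 members and 176 of 14515 genes. Limma on log2(FPKM + 1) called 5 members and 8273 of 14515 genes. In hNSCs rats 5 members (Spp1, Lgals3, Gpnmb, Cd68, and Cd44) were called against healthy rats at 4 days, with 2.54% of all genes. The edgeR calls were 0 at 10 days with 0.0758% of genes and 0 at 31 days with 0.0344%. At an unadjusted p under 0.05 by edgeR there were 5 members on each day, beside 12.7% and 6.88% of all genes. DESeq2 called 4 and 5 members, with 551 and 163 of 14515 genes. Limma on log2(FPKM + 1) called 0 and 5 members, with 0 and 8735 genes. These counts hung on single libraries. The 3 calls at 4 days became 0 without healthy rat 1 or 3 and 1 without healthy rat 2 or control rat 1. The 3 calls at 10 days became 0 without control rat 2 or any healthy rat and 6 without control rat 1, and the 5 calls in hNSCs rats at 4 days became 1 without healthy rat 1 or 3 and 3 without healthy rat 2. The 0 calls in hNSCs rats at 10 days became 2 (Spp1 and Tyrobp) without hNSCs rat 1. In that fit 1026 of 14894 genes were called, 847 of them lower. The 6 calls without control rat 1 at 10 days stood beside 367 of 14893 genes.

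Members tended to be high or low in the same libraries of a group. How many of all genes were highest or lowest in these libraries was not counted. Among control rats at 10 days, rat 2 had the highest level of 8 of the 9 genes and rat 1 the lowest of 7. Among control rats at 31 days rat 3 was lowest for 8, and among hNSCs rats at 31 days rat 3 was lowest for all 9. In hNSCs rat 3 at 10 days, the library with the fewest annotated reads, 8 of the 9 genes had no read, and Cd63 was the exception at 55.8 CPM.

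Across the 21 brain libraries, the gene whose log2(CPM + 1) most resembled the mean scaled profile of the 9 genes was Runx1, a transcription factor of blood and myeloid cells, with a Pearson r of 0.95. It was followed by Msn, a linker of membrane and actin (r = 0.93), Tgfbr1, a receptor of TGF-β (r = 0.93), and Ikzf1, a lymphoid and myeloid transcription factor (r = 0.92). The remaining genes of the first 10, with r of 0.91 to 0.92, were Cald1, Tns3, Sh3pxd2b, Tgfbr2, Igf1, and Tbx18. Of the members themselves, Gpnmb (r = 0.94) and Spp1 (r = 0.92) lay closest to the profile they are part of and Cd63 (r = 0.49) farthest. These correlations describe 21 libraries that share differences in depth and group and carry no test.

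The other genes of the damage-associated state were compared in the same groups, through a list of 20 drawn up with earlier results known. Of 18 tested, 4 were called higher at 4 days and none lower, namely Igf1 (log2 fold change 6.13 ± 1.12), a growth factor, Lyz2 (3.99 ± 0.89), lysozyme, and the lysosomal proteases Ctsd (3.01 ± 0.68) and Ctsb (2.50 ± 0.56). The median log2 fold change of the 18 was 2.01, against 0.05 over all genes. At 4 days 0.861% of all genes were called, and none were without healthy rat 1 or healthy rat 3. At 10 days 5 of the list were called higher, among them Igf1 (6.17 ± 1.12), Ctsd (3.42 ± 0.69), and Ctsb (2.55 ± 0.56). The median was 2.27 (0 over all genes), and 0.572% of all genes were called. Without healthy rat 1 no gene was called at 10 days, and without control rat 2 only 2 were. At 31 days none of the list was called, with a median of 1.07 (0.24 over all genes). Apoe, a lipid carrier that binds Trem2, was already at 1934 CPM over the healthy libraries, and with a log2 fold change of 1.49 ± 0.45 at 4 days it was not called.

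Of the binding partners, signaling proteins, and regulators of the 9 genes (21 listed, 19 tested), 1 was called higher at 4 days and none lower, Inpp5d (2.88 ± 0.51), a phosphatase that restrains Tyrobp signaling. At 10 days Inpp5d (2.66 ± 0.51) was called again, together with Itgb2, the integrin partner of Itgax, which had no reads in healthy rats and 37.2 CPM over the control libraries. None was called at 31 days. Over all genes 0.861% and 0.572% were called at 4 and 10 days, with the dependence on single libraries given above. Itgav, Itgb5, and Itga9, integrin subunits that bind osteopontin, had log2 fold changes of 0.07 ± 0.38, 0.31 ± 0.58, and 0.57 ± 0.70 at 4 days, and Mitf and Tfeb, transcription factors of lysosomal genes, 0.38 ± 1.13 and 1.17 ± 0.87. The median of the list was 1.17 at 4 days.

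Marker lists of other cells were summed in the same rats, and few of their genes were called. At 4 days 0.861% of all genes were called, and none were without healthy rat 1 or healthy rat 3. The 9 homeostatic microglia genes measured summed to 85.0 to 148 CPM in healthy rats and to 261 to 373 CPM in control rats at 4 days, with 0 of 9 called and a median log2 fold change of 1.83. The monocyte and macrophage list (9 genes) summed to 17.2 to 118 CPM and 349 to 747 CPM, with 1 of 7 called, Fn1 (3.42 ± 0.75), and Ms4a7 and Plac8 at 0 in both groups. The neutrophil list (10 genes) summed to 0 to 3.66 CPM and 20.8 to 47.4 CPM, with S100a8, Mpo, Elane, and Ltf among those at 0 in both groups, and the T cell list (5 genes) to 0 and to 0 to 6.51 CPM. The astrocyte list (8 genes) summed to 1225 to 1363 CPM and 4699 to 6204 CPM, with Gfap (2.25 ± 0.36) and Vim (4.19 ± 0.69) called, 4 of 7 genes above 0, and a median of 0.47. The vascular list (7 genes) summed to 110 to 262 CPM in healthy and 396 to 649 CPM in control rats, and the oligodendrocyte list (6 genes) to 2618 to 3058 and 3891 to 6337 CPM. Of these, 6 of 7 vascular genes (median 1.57) and 4 of 6 oligodendrocyte genes (median 0.17) were above 0. The neuron list (8 genes) was lower, at 6526 to 7759 and 3058 to 5544 CPM, as was the red cell list (6 genes), at 203 to 475 and 84.5 to 186 CPM, and the platelet list (6 genes) summed to 0 to 2.25 and 0 to 10.1 CPM. No gene of the vascular, oligodendrocyte, neuron, red cell, and platelet lists was called. The part of these cells in the levels of the 9 genes was not tested.

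Treatment with hNSCs was compared with control at each time point, to ask whether transplantation changed these genes. No member was called at 4, 10, or 31 days, and 0% of 14515 genes were called in each of the 3 comparisons. Control samples here are the ones described above, so the levels of these genes in them were known when the set was chosen. At 4 days the summed level of the 9 genes was 527 to 1781 CPM in hNSCs rats and 829 to 1769 CPM in control rats, at 10 days 55.8 to 522 against 82.7 to 2196 CPM, and at 31 days 50.3 to 326 against 102 to 241 CPM. The ranges overlapped each time.

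At 10 days, 7 of the 9 estimates were below 0, with a median of −1.79, against −0.34 over all genes. Spp1 was at 12.1, 89.6, and 0 CPM in hNSCs rats against 20.0, 693, and 197 CPM in control rats, a log2 fold change of −3.15 ± 1.16 (adjusted p = 0.326). Gpnmb stood at 19.9, 102, and 0 CPM against 17.5, 616, and 38.6 CPM, a log2 fold change of −2.44 ± 1.16 (adjusted p = 0.367). Both ranges overlapped those of the control rats. Lgals3 had no read in the 3 hNSCs libraries, against 0, 187, and 29.3 CPM, at least 114-fold lower as a group (adjusted p = 0.163), although control rat 1 had none either, and without control rat 2 the bound was 17.5-fold. Cd68 was at 28.8, 119, and 0 CPM against 10.7, 237, and 182 CPM (−1.53 ± 1.05, adjusted p = 0.56), and Trem2, at 13.5, 103, and 0 CPM, had the largest estimate above 0 (0.60 ± 1.48). The estimates were −2.77 for Tyrobp, −1.79 for Cd44, −0.76 for Cd63, and 0.08 for Itgax.

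At an unadjusted p under 0.05, 3 members (Spp1, Gpnmb, and Lgals3) differed at 10 days, beside 13.4% of all genes. DESeq2 called 1 member, Lgals3, with 651 of 14515 genes, and limma called none. Without control rat 1, edgeR also called Lgals3, with 40 of 14893 genes, 35 of them lower. Without control rat 2 the estimate for Gpnmb turned to 0.56. Without hNSCs rat 1, 733 of 14894 genes and 0 members were called. The hNSCs libraries at 10 days had 3.18% to 16.9% of their reads on annotated genes, against 11.3% to 13.4% in the control libraries, and the red cell list summed to 861 to 1347 CPM against 339 to 1165 CPM. The homeostatic microglia list summed to 181 to 351 CPM against 193 to 986 CPM, with a median log2 fold change of −1.94 when a gene without reads is set at its bound, and that of the other damage-associated genes was −1.46. The same median was −2.79 for the monocyte and macrophage list, with 7 of its 9 genes without reads in the hNSCs rats. It was −0.84 for the vascular list, 0.27 for the neuron list, and 0.72 for the red cell list. The part of these differences in the estimates was not tested.

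At 4 days Spp1 was at 145, 437, and 987 CPM in hNSCs rats, a log2 fold change of −0.35 ± 1.04 against control (95% confidence interval −2.51 to 1.80). Gpnmb was at 171, 274, and 269 CPM (−0.39 ± 1.08, interval −2.62 to 1.84) and Cd68 at 84.7, 201, and 182 CPM (−0.03 ± 1.01, interval −2.11 to 2.06). Cd44 lay between 59.2 and 79.9 CPM in hNSCs rats and between 36.6 and 68.3 CPM in control rats (0.44 ± 1.04). Itgax, with 2 positive control rats, had no read in the hNSCs rats (adjusted p = 0.556). It was the only member at an unadjusted p under 0.05 by edgeR, beside 7.53% of all genes. The estimates for Lgals3, Trem2, Tyrobp, and Cd63 were −0.60, 0.57, 0.15, and −0.26. DESeq2 and limma called 0 members.

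At 31 days Spp1 was at 5.51, 44.6, and 5.20 CPM in hNSCs rats (0.13 ± 1.06 against control, interval −2.07 to 2.32), Gpnmb at 162, 114, and 8.83 CPM (0.69 ± 1.08, interval −1.55 to 2.93), and Cd68 at 24.9, 22.4, and 2.54 CPM (0.45 ± 1.02, interval −1.66 to 2.56). The estimates for Lgals3, Trem2, Tyrobp, Cd63, Itgax, and Cd44 were −0.12, 0.08, 0.22, −0.11, −0.44, and −0.26. No member reached an unadjusted p under 0.05 by edgeR, and DESeq2 and limma called 0. At 4 and 31 days the confidence intervals of these 3 genes reached past 1.5 on the log2 scale in both directions, so changes of that size were not detectable with 3 rats a group.

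**Figure D2:**
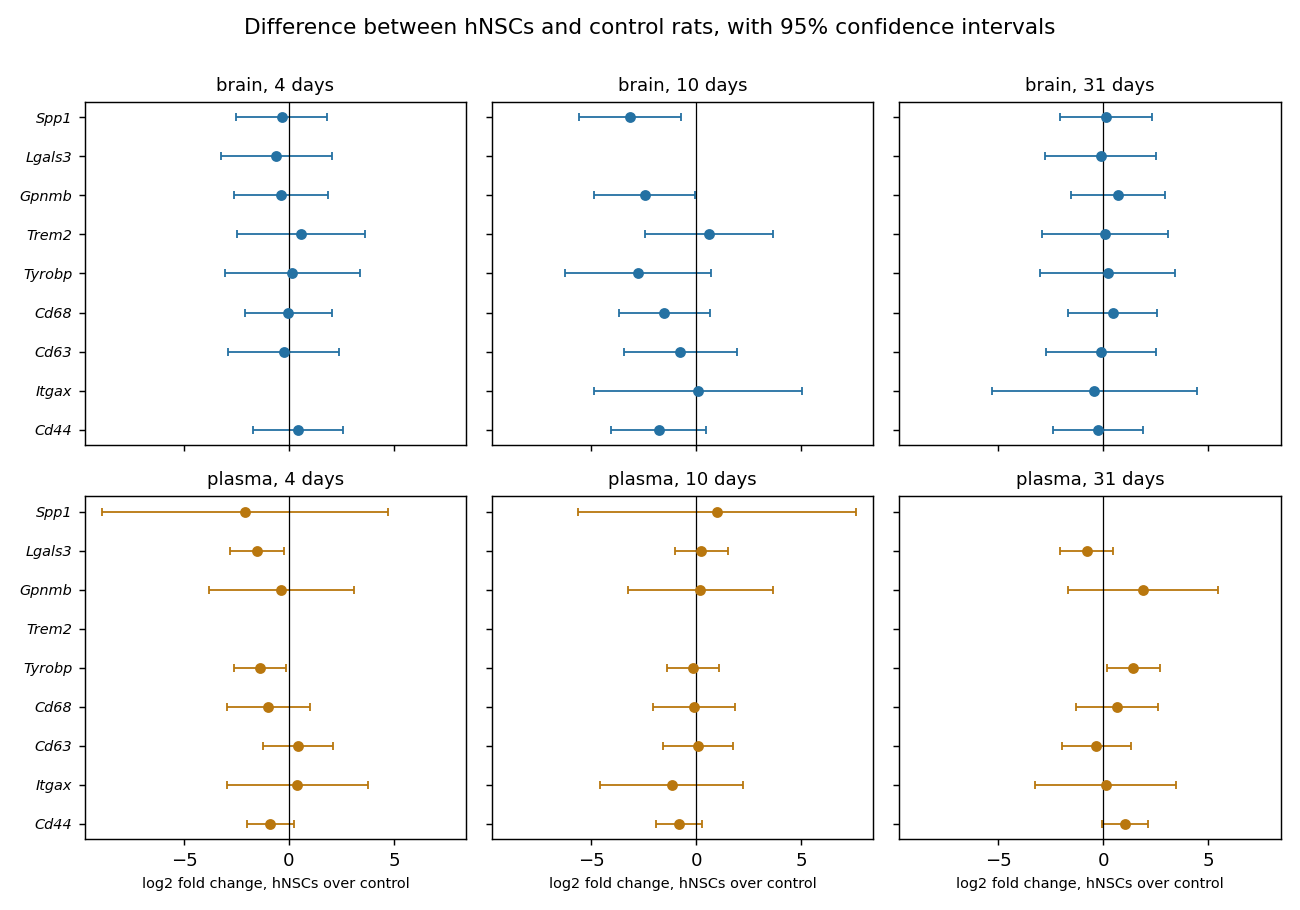
Log2 fold change of hNSCs over control rats (horizontal axis) for the 9 genes (vertical axis) at 4, 10, and 31 days in brain and in plasma, with 95% confidence intervals from edgeR and 3 rats per group. Genes without reads in either of the groups compared have no point. In brain at 10 days the intervals of Spp1 and Gpnmb lie below 0, and neither passed adjustment.

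The effect of hNSCs was also compared between time points. In brain no member was called in the 3 interaction contrasts (0% of genes called in each). Against 4 days, the effect at 10 days differed by −2.79 ± 1.53 for Spp1 (adjusted p = 0.653). In the contrasts of 10 against 4, 31 against 4, and 31 against 10 days, 1, 0, and 2 members reached an unadjusted p under 0.05. These stood beside 8.63%, 4.23%, and 6.23% of all genes. DESeq2 called 1, 0, and 1 members, with 410, 106, and 224 of 14515 genes. Each time the member was Lgals3, which had no reads in the hNSCs rats at 10 days.

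In plasma-derived EVs the same genes had another profile. The EV tetraspanin Cd63 and the blood cell genes Lgals3, Tyrobp, Cd68, and Cd44 were read in all 21 libraries, whereas Spp1 was read in 10 and Trem2 in 4, never above 7.62 CPM. In healthy plasma Tyrobp led with 93.2 ± 68.5 FPKM (SD, n = 3), followed by Lgals3 with 20.7 ± 10.4, Cd44 with 14.3 ± 6.20, Cd63 with 10.8 ± 7.80, and Cd68 with 10.8 ± 8.73, and no neighbours from Lgals3 to Cd68 differed beyond their spread. Itgax (1.35 ± 0.639), Gpnmb (1.30 ± 0.585), and Trem2 (0.163 ± 0.282) were low, and Spp1 (6.0 ± 9.03) owed its mean to rat 1, with 67.0 CPM against 4.27 and 6.66 CPM in the others.

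**Figure D3:**
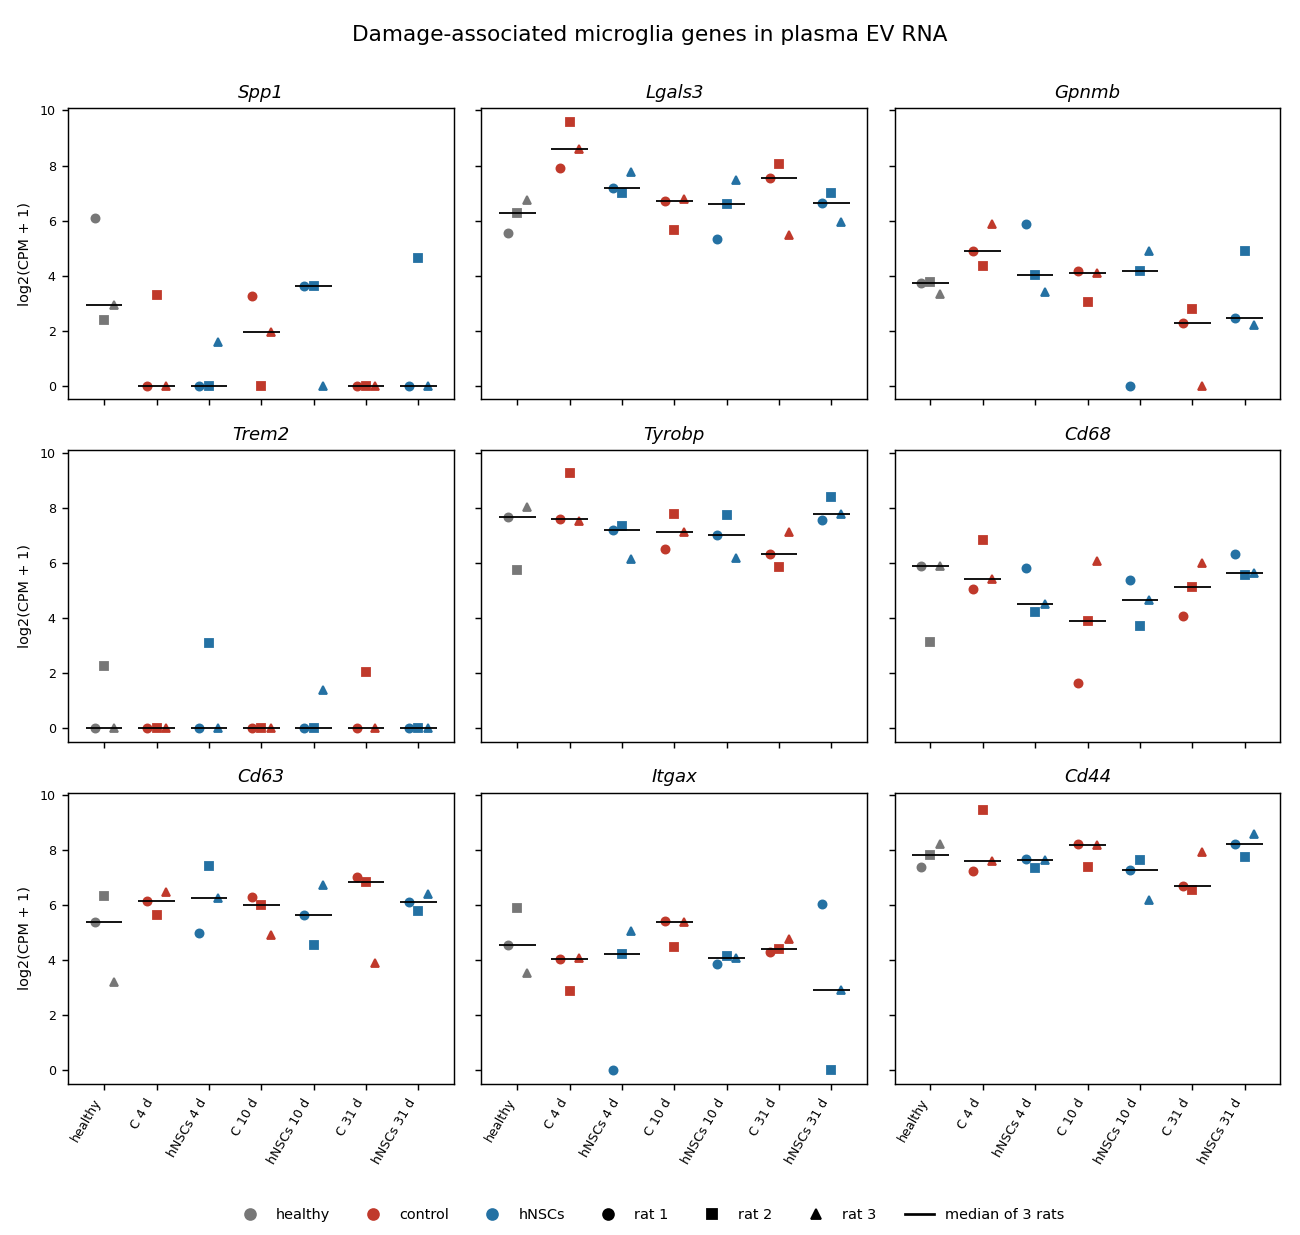
Level of each of the 9 genes in plasma-derived EVs, as log2(CPM + 1) on the vertical axis, in 21 rats of 7 groups on the horizontal axis (C, control). Symbols are single rats and black lines the median of 3 rats. Lgals3 lies at 241 to 774 CPM in control rats at 4 days, above the 46.6 to 108 CPM of healthy rats, and Trem2 lies above 0 in 4 of 21 libraries.

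Stroke was compared with the healthy state in plasma at each time point. At 4 days, Lgals3 stood at 241, 774, and 391.9 CPM in control rats against 46.6, 76.7, and 108 CPM in healthy rats, a log2 fold change of 2.60 ± 0.64. The ranges did not overlap and 3 of 3 control rats lay above the healthy rats, but the change did not pass adjustment (adjusted p = 0.269, range 0.000759 to 0.854 over the alternatives, the lowest by DESeq2, which called it). DESeq2 called 907 of 14720 genes in this contrast, 714 of them lower. Tyrobp was at 189, 606, and 182 CPM against 200.1, 52.2, and 261 CPM (0.93 ± 0.60, adjusted p = 0.788), and Cd44 at 149.5, 696, and 190.5 CPM against 164, 225, and 296 CPM (0.60 ± 0.53), both with overlapping ranges. Gpnmb, at 28.9, 19.7, and 57.6 CPM against 12.4, 12.8, and 9.12 CPM, did not overlap and had a log2 fold change of 1.63 ± 1.70 (adjusted p = 1). The estimates for Spp1, Cd68, Cd63, and Itgax were −3.14, 0.58, 0.69, and −1.27, and Trem2 had no reads in the control rats.

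No member was called at 4 days, and 0.0679% of 14720 genes were. Lgals3 was the only member at an unadjusted p under 0.05 by edgeR, beside 5.86% of all genes, and limma called no member. Control rat 2, which had the highest levels of Lgals3, Tyrobp, Cd68, and Cd44, also had the highest summed neutrophil list, at 2543 CPM. That list ran from 604 to 2543 CPM in control rats at 4 days and from 153 to 262 CPM in healthy rats, with 9 of its 10 genes read in both groups and Ltf at 0. The monocyte and macrophage list ran from 1850 to 3981 CPM against 1322 to 2987 CPM and the homeostatic microglia list from 38.3 to 128 against 86.9 to 272 CPM. The red cell list (6 genes) summed to 11650 to 21378 CPM against 43437 to 79049 CPM. The part of these cells in the levels of Lgals3 was not tested. Without control rat 2 the log2 fold change of Lgals3 was 2.04.

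At 10 and 31 days no member was called by edgeR, and 0% of genes were called at each. At 10 days Lgals3 was back at 104, 49.95, and 110.0 CPM (0.19 ± 0.60), a range that overlapped the healthy one, and no member reached an unadjusted p under 0.05 or was called by DESeq2 or limma. The estimates for Spp1, Gpnmb, Tyrobp, Cd68, Cd63, Itgax, and Cd44 were −2.76, 0.24, −0.20, −0.59, 0.41, 0.20, and 0.13, and Trem2 had no reads in the control rats. At 31 days Lgals3 was at 186, 265, and 43.2 CPM (1.10 ± 0.61, adjusted p = 0.844). Spp1 had no reads in the 3 control rats at 31 days, where healthy rats had 67.0, 4.27, and 6.66 CPM (adjusted p = 0.844). It was the only member at an unadjusted p under 0.05 by edgeR, beside 4.75% of all genes. It was also the only member DESeq2 called, with 659 of 14720 genes. Gpnmb, at 3.89, 5.99, and 0 CPM, lay below the healthy range without passing the test (−1.79 ± 1.71). The estimates for Trem2, Tyrobp, Cd68, Cd63, Itgax, and Cd44 were −0.28, −0.91, −0.15, 1.02, −0.48, and −0.65.

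Against control, hNSCs rats had less Lgals3 and Tyrobp in plasma at 4 days by estimate, and neither passed adjustment. Lgals3 was at 143, 128, and 217 CPM in hNSCs rats against 241, 774, and 391.9 CPM, without overlap, a log2 fold change of −1.53 ± 0.62 (adjusted p = 0.814). Tyrobp was at 147, 159, and 69.0 CPM against 189, 606, and 182 CPM, also without overlap (−1.38 ± 0.60, adjusted p = 0.814). Each gene was lower in 3 of 3 hNSCs rats than in every control rat. Without control rat 2 the estimates were −0.96 and −0.57. The estimates for Spp1, Gpnmb, Cd68, Cd63, Itgax, and Cd44 were −2.09, −0.36, −0.98, 0.42, 0.40, and −0.89, and Trem2 was read in 1 hNSCs rat and in no control rat. No member was called, and 0.00679% of genes were. Of the members, 2 (Lgals3 and Tyrobp) reached an unadjusted p under 0.05 by edgeR, beside 3.94% of all genes. DESeq2 and limma called 0 members. The neutrophil list summed to 181 to 565 CPM in these hNSCs rats, below the 604 to 2543 CPM of the control rats, and its part in these estimates was not tested.

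At 10 days no member was called (0% of genes), none reached an unadjusted p under 0.05, and DESeq2 and limma called 0. Estimates of the members with reads in both groups ran from −1.17 ± 1.63 for Itgax to 1.00 ± 3.14 for Spp1, with 0.24 for Lgals3, 0.20 for Gpnmb, −0.13 for Tyrobp, −0.11 for Cd68, 0.08 for Cd63, and −0.83 for Cd44. Trem2 was read in 1 hNSCs rat and in no control rat. At 31 days Tyrobp was at 189, 330, and 218 CPM in hNSCs rats against 78.9, 56.6, and 138 CPM in control rats, without overlap, a log2 fold change of 1.43 ± 0.60 (adjusted p = 0.522). Cd44 was at 293, 213, and 383 CPM against 101, 92.2, and 241 CPM (1.03 ± 0.53, adjusted p = 0.522), with overlap. Spp1 was read in 1 hNSCs rat (24.1 CPM) and in no control rat, and Trem2 in 1 control rat and in no hNSCs rat. The estimates for Lgals3, Gpnmb, Cd68, Cd63, and Itgax were −0.78, 1.89, 0.64, −0.33, and 0.11. At 31 days 0 members and 0% of genes were called. Of the members, 2 (Tyrobp and Spp1) reached an unadjusted p under 0.05 by edgeR, beside 8.57% of all genes. DESeq2 called Spp1, with 1668 of 14720 genes, and limma called 0 members. The 9 genes together summed to 797, 804, and 824 CPM in hNSCs rats and to 524 to 591 CPM in control rats. The neutrophil list summed to 217 to 456 against 58.5 to 340 CPM, the monocyte and macrophage list to 1331 to 2440 against 1204 to 1609 CPM, and the red cell list to 194364 to 305883 against 55752 to 151257 CPM, and their part in these levels was not tested.

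Between time points, the effect of hNSCs on Tyrobp in plasma was 2.81 ± 0.85 higher at 31 than at 4 days (adjusted p = 0.425), and that on Cd44 1.92 ± 0.75 higher (adjusted p = 0.425). No member was called in the contrasts of 10 against 4 days (0.00679% of genes called), 31 against 4 days (0.00679%), and 31 against 10 days (0%). In these contrasts 0, 4, and 2 members reached an unadjusted p under 0.05 by edgeR, beside 5.69%, 9.96%, and 12.1% of all genes. DESeq2 called 0, 2 (Spp1 and Tyrobp), and 1 (Spp1), with 1147, 1758, and 2023 of 14720 genes.

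None of the other damage-associated genes (19 tested) or of the partners (21 tested) was called in any plasma comparison of control with healthy or of hNSCs with control rats. The median log2 fold change of the other damage-associated genes in control rats at 4 days was 0.60, against −0.12 over all genes, and that of the partners −0.21. Among the marker lists, 1 gene of the red cell list was lower at 4 days, Alas2 (−3.31 ± 0.54), the first enzyme of heme synthesis. The genes most like the mean profile of the 9 members in the 21 plasma libraries were Cd80, a costimulatory ligand (r = 0.79), Gyg1, the primer of glycogen synthesis (r = 0.79), and Prok2, a secreted peptide (r = 0.75). They were followed by Tbx1, Tox2, LOC685048, Mpnd, Sh3pxd2b, Tnfrsf8, and RGD1559588 (r = 0.71 to 0.73), and Sh3pxd2b, a scaffold of podosomes, was among the first 10 in both tissues. Lgals3 (r = 0.65) was the member nearest to the plasma profile and Itgax (r = −0.05) the farthest.

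**Figure D4:**
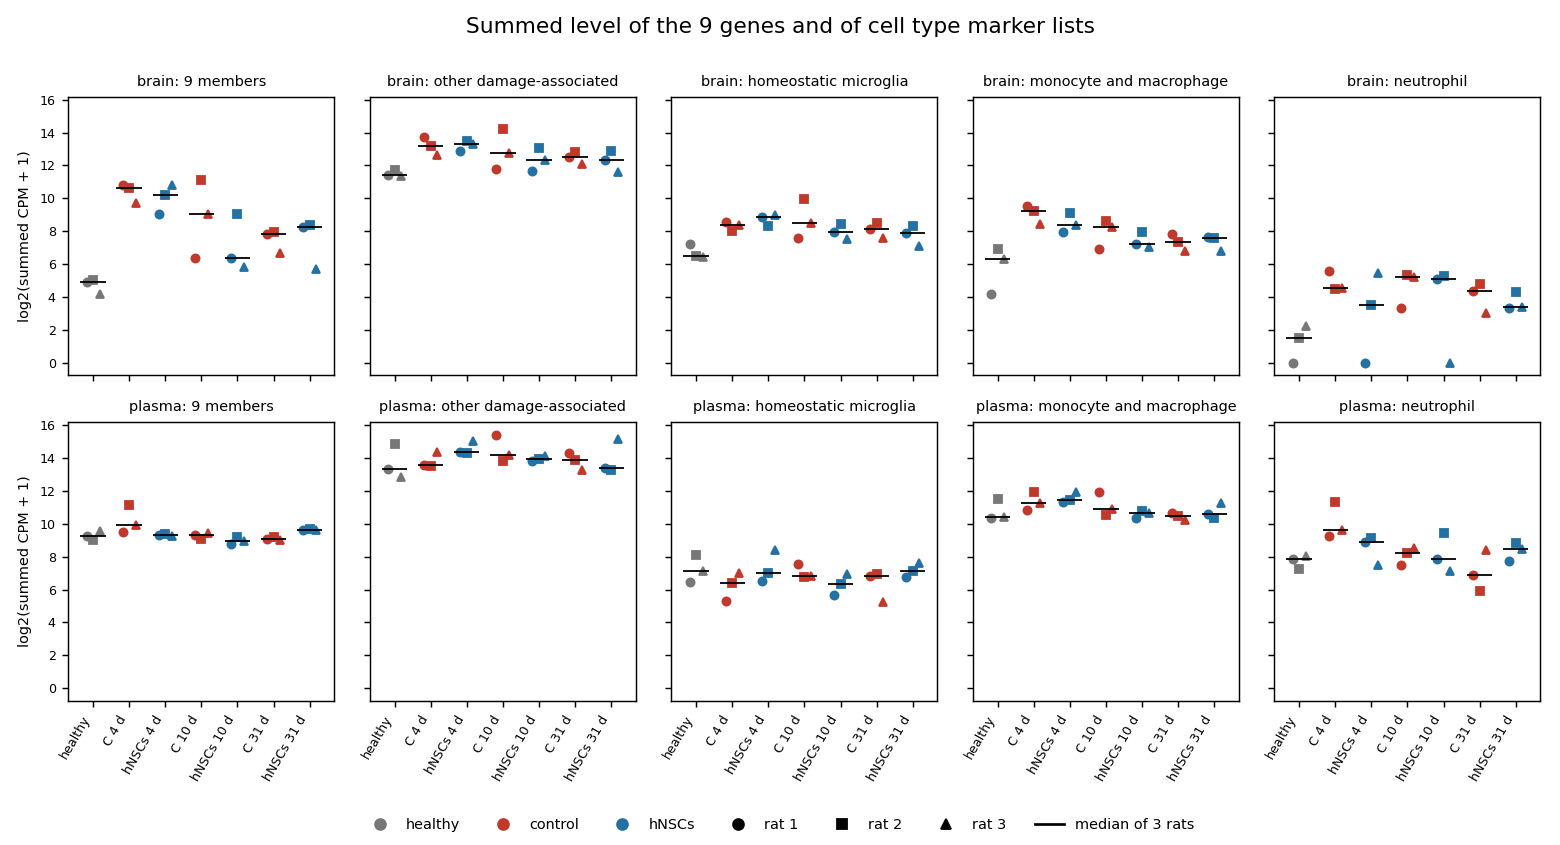
Summed level of the 9 genes and of 4 comparison lists, as log2(summed CPM + 1) on the vertical axis, in brain (upper row) and plasma (lower row) libraries of 7 groups on the horizontal axis (C, control). Symbols are single rats and black lines the median of 3 rats. In brain the 9 genes run from at most 31.7 CPM in healthy rats to at least 829 CPM in control rats at 4 days, and in plasma they lie between 435 and 2271 CPM in every library.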

How the data were processed

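Counts and FPKM of EV mRNA from 21 brain and 21 plasma libraries were used. The authors prepared libraries with a SMARTer stranded total RNA kit from low input, removed adapters and low-quality reads, aligned to Rnor_6.0 with Bowtie2 and assembled transcripts with StringTie. The deposited counts are whole reads per gene without normalization, and the deposited FPKM values are sums over the transcripts of a gene. The counting tool, its strand setting and versions are not given in the sources used here, so reads of overlapping or antisense genes cannot be told apart. The blood samples are called plasma here, as in the sample titles, although the extraction text speaks of serum. Annotated genes (18782) were analyzed and 7855 new genes were left out, and all columns were mapped to samples. Group and rat number came from the labels.

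edgeR 4.0.16 in R 4.3.3 was run with TMM factors, filterByExpr and quasi-likelihood tests in 1 model of 7 groups per tissue, and genes with a change over 1.5-fold and a p below 0.05 after Benjamini-Hochberg correction over the whole table were called. Standard errors are the log2 fold change divided by the root of F. The fits were also run on simulated counts that gave all genes the same spread. Genes without reads in a whole group were not modeled, so that run supports none of the calls. A group without reads was compared through a floor of 3 reads over the group. List medians against a group without reads used the same floor. The alternatives were DESeq2 1.42.0, limma 3.58.1 on log2(FPKM + 1) or log2(FPKM + 0.1), the rat number as a block, fitting only the 2 groups compared, keeping genes of low count, library sizes of all rows without TMM, 10 hemoglobin genes left out, and each library left out in turn. The rat numbers of the labels paired all 3 brain hNSCs and control rats at 31 days (correlations of deviations from the group means 0.25, 0.28, and 0.33). In no other comparison examined were all 3 correlations positive. They were 0.18, 0.071, and −0.0089 for brain hNSCs and control rats at 10 days. For plasma control rats at 31 days and healthy rats they were −0.0051, 0.20, and 0.29. No label says that these numbers mark a shared batch.

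The members, lists, motifs and tests were chosen with earlier results of these data known. All 9 members are given in each comparison of hNSCs with control and of control with healthy rats. Up to 3 called genes with the largest change were named from each other list and comparison, and Ctsb at 4 days, Apoe, the integrin subunits, Mitf and Tfeb were named after their values were seen. Genes most like the members were those with the highest Pearson r to their mean scaled profile. Promoter sequences are from RefSeq (GRCr8), a build other than that of the files, and Python 3.11.15 was used for these steps.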

Additional observations from a re-analysis of the deposited data

Results flagged for a closer look

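Tyrobp in plasma-derived EVs moved in opposite directions with hNSCs at 4 and 31 days. All 3 hNSCs rats lay below all 3 control rats at 4 days (69.0 to 159 against 182 to 606 CPM) and above them at 31 days (189 to 330 against 56.6 to 138 CPM). The difference between the effects was 2.81 ± 0.85 on the log2 scale. It did not pass adjustment over all genes in the edgeR interaction test (adjusted p = 0.425). DESeq2 called it, with 1758 of 14720 genes. The estimate at 4 days was weaker without control rat 2. Among the 9 members, in either tissue, only Tyrobp had separate ranges in opposite directions at a pair of time points. The share of all genes with this pattern was not counted.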

How the results depend on the processing

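Of the 9 genes, edgeR called 3 at 4 days in brain-derived EVs of control against healthy rats, and 6 were called by DESeq2, 6 by limma on log2(FPKM + 0.1), 5 without the filter on low counts, 5 with the replicate block, 6 with only the 2 groups fitted, and 0 to 3 with 1 library left out. Over all genes edgeR called 125. These alternatives called 851, 490, 159, 180, and 540 in the same order, and 0 to 95 with 1 library left out. At 10 days the 3 calls became 6 by DESeq2, 0 by limma with either pseudocount, 5 without the filter, 1 with library sizes of all rows, 0 with only the 2 groups fitted, and 0 to 6 with 1 library left out. Over all genes edgeR called 83 at 10 days. These alternatives called 613, 0, 105, 3, and 0 in the same order, and 0 to 367 with 1 library left out. At 31 days the 0 calls became 5 by DESeq2 and 1 with library sizes of all rows, for control and for hNSCs rats alike. There DESeq2 called 176 genes for control and 163 for hNSCs rats, and library sizes of all rows gave 11 and 6. Limma on log2(FPKM + 1) and log2(FPKM + 0.1) called 5 and 8 members in either case. With these pseudocounts limma called 8273 and 11741 of 14515 genes for control rats, and 8735 and 12397 for hNSCs rats. For hNSCs against healthy rats, the 5 calls at 4 days became 0 and 2 by limma, 3 with library sizes of all rows, and 1 to 6 with 1 library left out, and the 0 calls at 10 days became 4 by DESeq2 and 0 to 2 with 1 library left out. Over all genes, edgeR called 369 at 4 days and limma 8 and 42. There were 29 with library sizes of all rows and 53 to 269 with 1 library left out. At 10 days edgeR called 11 genes, DESeq2 551, and the fits with 1 library left out 0 to 1026. Library sizes of all rows moved the median of all genes at 31 days from 0.24 to 1.68 on the log2 scale. The cause of the other shifts was not tested.

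For hNSCs against control rats in brain, DESeq2 called 1 member at 10 days, and 0 to 1 were called with 1 library left out. Over all genes, 0 to 733 were called at 10 days with 1 library left out. DESeq2 also called 1 member in the interaction of 10 with 4 days and 1 in that of 31 with 10 days. In plasma it called 1 at 4 days and 1 at 31 days against healthy rats, and 1 at 31 days against control rats. It called 2 and 1 in the interactions of 31 with 4 and 31 with 10 days. In these plasma contrasts edgeR called 0 members, and DESeq2 called 907, 659, 1668, 1758, and 2023 of 14720 genes. Over all genes, DESeq2 called 851 against edgeR's 125 at 4 days and 613 against 83 at 10 days for brain control over healthy rats (70.6% against 84.8% and 84.8% against 94.0% of them higher), 176 against 1 at 31 days, 651 against 0 for hNSCs over control rats at 10 days, and 907 against 10 in plasma at 4 days.

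Small log2 fold changes of hNSCs over control rats in brain changed sign. At 31 days Spp1 was at −0.12 by limma with both pseudocounts, −0.013 with library sizes of all rows, and −1.65 to 0.74 with 1 library left out. With 1 library left out, Spp1 at 4 days ran from −1.20 to 0.084, Cd68 at 4 days from −0.39 to 0.29, and Gpnmb at 10 days from −4.07 to 0.56. With the replicate block, Spp1 at 31 days was −0.45, Gpnmb at 4 days 0.14, and Cd68 at 4 days 0.0099. Samples of the same number deviated together only in that comparison at 31 days, where 0 genes were called with and without the block. Elsewhere the numbers pair no samples, and the block changed the count of members called only against healthy rats in brain (5 and 2 for control at 4 and 10 days, 6 for hNSCs at 4 days). Leaving out hemoglobin genes moved no count of members called by over 1.5 times. With 1 library left out, the remaining 2 rats of a group are assumed to vary like the other groups. Brain depth limits scarce genes such as Itgax and Trem2.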
